A study of Mus musculus with 4 samples.

Results

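The small leucine-rich proteoglycans (SLRPs) of the extracellular matrix were compared between STMN1-/- and STMN1+/+ mouse embryo fibroblasts (MEFs). The 10 genes are Dcn, Bgn and Aspn of class I, Lum, Fmod, Prelp, Kera and Omd of class II, Ogn of class III and Podn of class V. The genes were listed with earlier results of these data known. Their counts beside those of all genes are therefore a description and not a test of the family. Probes were taken by name, as every spot that is not a control and carries 1 of these gene names. This gave 13 of the 41174 probes on the array. The array names 21232 genes in all. Dcn, Bgn and Prelp had 2 probes each and the other 7 genes had 1.

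SLRPs are secreted proteins built from a curved stack of leucine-rich repeats, most of which carry glycosaminoglycan chains. In connective tissue they sit on collagen fibrils and control how thick and how evenly spaced the fibrils become, and several of them bind growth factors of the TGF-β family or signal through cell surface receptors. Fibroblasts are a main source of decorin, biglycan and lumican, whereas keratocan is best known from the cornea and osteomodulin from bone.

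STMN1 encodes stathmin, a protein that destabilizes microtubules. MEFs were grown from single mid-gestation embryos of matings between C57BL/6 STMN1+/- mice, in serum-containing medium and for a limited number of passages, and the null allele carries a neomycin cassette in the STMN1 gene. Total RNA of STMN1-/- and STMN1+/+ cells of the C57BL/6 strain was labelled with Cy3 or Cy5 and put together on each of 4 two-colour arrays of 60-base probes, with STMN1-/- RNA in Cy3 on arrays 1 and 2 and in Cy5 on arrays 3 and 4. No treatment was given to either genotype. The labels do not tie the arrays to embryos, cell lines or extracts, so each p-value rests on the variation among 4 hybridizations, all of which could be technical repeats. A lower signal can come from fewer cells of a type or from less RNA per cell, and in bulk RNA these cannot be told apart.

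Stmn1 itself was lower in the STMN1-/- channel on 4 of 4 arrays by both of its probes. Probe A_52_P319161 read between 5115 and 7002 in STMN1-/- and between 24158 and 28540 in STMN1+/+, a log2 ratio of -2.16 ± 0.06 (SE, n = 4, limma adjusted p = 0.000603). Probe A_51_P495641 showed a smaller difference of -0.39 ± 0.07 on the log2 scale (SE, n = 4, limma adjusted p = 0.0182). Both probes kept a strong signal in the STMN1-/- channel. The paper attributes the incomplete loss on the array to a flawed STMN1 probe that also matches a region of another chromosome. It does not say which probe is meant. It reports no STMN1 mRNA or protein in STMN1-/- MEFs by qRT-PCR and western blotting. All 4 arrays had between 24808 and 26029 probes well above background per channel. Across probes, 2 arrays with the same dye orientation correlated in log2 ratio at 0.689 to 0.703, and 2 with opposite orientation at 0.445 to 0.489.

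The probes decide which stretch of each transcript was read. For 6 of the probes the first 30 of 60 bases are given, 5′ to 3′ in lower case, and for a Bgn and a Prelp probe all 60, because the 2 probes of these genes read different stretches. The brighter Bgn probe and the dimmer Prelp probe carry sequence that codes for leucine-rich repeats.
Lum, probe A_51_P167527: taagcatttgcacggttacttagtgaaact
Aspn, probe A_51_P142813: ctcaactcataataaagcttcaagtattca
Fmod, probe A_51_P207622: ggcaagcgtggttttcaaaacatgagaaag
Dcn, probe A_51_P334104: aacaccttcagatgtgtctatgtgcgttct
Bgn, probe A_52_P162486: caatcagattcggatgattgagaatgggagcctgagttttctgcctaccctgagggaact
Bgn, probe A_52_P19711: cacagaaagtgtattccatcatagctctta
Prelp, probe A_52_P486260: ctgtacatcttatctattctccaaaagacc
Prelp, probe A_51_P439846: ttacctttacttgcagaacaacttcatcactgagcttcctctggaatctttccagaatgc

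A second processing described below called fewer, but most of the 10 SLRP transcripts were higher in STMN1-/- MEFs with the deposited processed signals. By probe, 8 of the 12 that were tested passed in limma's moderated test of the log2 ratio against 0 at an adjusted p under 0.05, as 22.3% of all 27724 probes did. Of the 10 genes, each represented by its brightest probe, 8 were higher in STMN1-/- and 0 were lower by this rule. Over all 15761 genes tested it called 13.1% higher and 12.2% lower. Lum, Aspn, Fmod, Podn, Kera, Dcn, Omd and Ogn passed, and Bgn and Prelp did not. At an unadjusted p under 0.05 limma gave 9 higher and 0 lower, and the methods' t-test gave 8 and 0. The median log2 ratio of the 10 genes was 1.19, beside 0.00 (0.0048) over all genes tested. Kera met the filter on dim probes only through the STMN1-/- channel of a single array, and without it 7 of 9 genes were higher, with a median log2 ratio of 0.99. Every STMN1-/- signal lay above every STMN1+/+ signal for 8 of the 10 genes, against 13.8% of all genes tested. Kera, with signals near background, is among these 8.

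**Figure D1:**
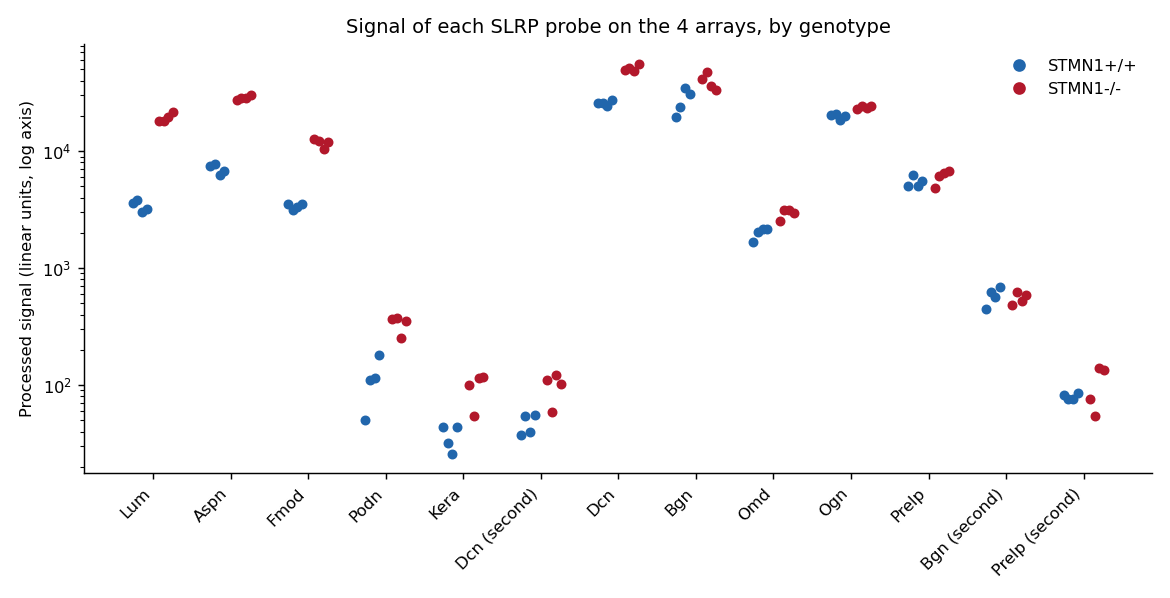
Processed signal (linear units on a log axis) of each of the 13 SLRP probes on the 4 arrays, with STMN1+/+ in blue and STMN1-/- in red and each point 1 array. The red points of Lum, Aspn, Fmod, Podn, Kera, Dcn, Omd and Ogn lie above all blue points of the same probe, while those of Bgn and Prelp overlap with them.

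Among the keratan sulfate-bearing class II proteins, lumican changed most. Lum (A_51_P167527, mm7 chr10:97135063-97135122) read 18050, 17933, 19547 and 21466 in STMN1-/- on arrays 1 to 4 and 3614, 3800, 3046 and 3172 in STMN1+/+. The genotypes did not overlap, and the array with the smallest difference still showed 4.72-fold. The mean log2 ratio was 2.50 ± 0.11 (SE, n = 4, limma adjusted p = 0.000803), or 5.66-fold, with a 95% interval of 2.22 to 2.78. This placed Lum 7th from the top of the 15761 genes tested. Lumican binds collagen and keeps fibrils thin and regularly spaced.

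Fibromodulin, which binds the same region of collagen I as lumican and takes part in fibril growth and crosslinking, was also high. Fmod (A_51_P207622, mm7 chr1:133937206-133937265) read 12646, 12194, 10431 and 12082 in STMN1-/- and 3542, 3125, 3309 and 3548 in STMN1+/+. All STMN1-/- values were at least 3.15-fold above the STMN1+/+ value of their array. The log2 ratio was 1.81 ± 0.07 (SE, n = 4, limma adjusted p = 0.000694), a 3.50-fold difference. Within each array Lum exceeded Fmod in log2 ratio, by 0.27 to 1.03 (mean difference 0.69, SD 0.37, 4 of 4 arrays).

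The other class II members gave smaller or fainter signals. Omd, which encodes osteomodulin, an acidic SLRP of bone, read 2509, 3168, 3133 and 2976 in STMN1-/- and 1672, 2037, 2142 and 2139 in STMN1+/+. Its log2 ratio was 0.56 ± 0.06 (SE, n = 4, limma adjusted p = 0.00433), or 1.48-fold, and the genotypes did not overlap. Kera, the corneal keratocan, read 100.4, 53.9, 115.6 and 117.3 in STMN1-/- and 44.1, 31.8, 25.8 and 44.0 in STMN1+/+. Only the STMN1-/- signal of array 4 was well above background and no STMN1+/+ signal was. The log2 ratio of Kera was 1.38 ± 0.23 (SE, n = 4, limma adjusted p = 0.0156), or 2.6-fold. It was 0.14 in the second processing described below, so the size of the Kera difference is uncertain. Prelp, which links basement membranes to collagen, was read by probe A_52_P486260 at 4864, 6094, 6547 and 6769 in STMN1-/- and 5068, 6251, 5029 and 5539 in STMN1+/+. These ranges overlapped, 2 of 4 arrays were higher, and the log2 ratio of 0.14 (95% interval -0.11 to 0.40, limma adjusted p = 0.359) did not pass. The other Prelp probe, A_51_P439846, was not well above background in either genotype on any array, with signals of 54.7 to 139.6 in STMN1-/- and 75.8 to 85.6 in STMN1+/+, and was not tested.

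In class I, asporin changed most. Aspn (A_51_P142813, mm7 chr13:49050987-49051046), a member that lacks a glycosaminoglycan attachment site and binds collagen and TGF-β, read 27462, 28389, 28592 and 30122 in STMN1-/- and 7441, 7698, 6281 and 6782 in STMN1+/+. The log2 ratio was 2.03 ± 0.08 (SE, n = 4, limma adjusted p = 0.000698), or 4.07-fold, with a smallest single-array difference of 3.69-fold. Aspn ranked 27th among all genes tested.

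Dcn encodes decorin, the chondroitin or dermatan sulfate proteoglycan that decorates collagen I fibrils and sequesters growth factors. Its bright probe (A_51_P334104, mm7 chr10:97080086-97080145) read 49100, 50998, 48949 and 56188 in STMN1-/- and 25562, 26045, 24342 and 27227 in STMN1+/+. The 4 log2 ratios of 0.94, 0.97, 1.01 and 1.05 lay closer together than those of any other SLRP probe (SD 0.05), and their mean was 0.99 ± 0.05 (SE, limma adjusted p = 0.000985). Aspn exceeded Dcn in log2 ratio on 4 of 4 arrays, by 0.91 to 1.18. The second Dcn probe, A_52_P252726, is named by a cDNA clone and lies 36.9 kb away at mm7 chr10:97043200-97043259. It read 58.9 to 122.4 in STMN1-/-, where 1 of 4 arrays was well above background, and 37.5 to 55.5 in STMN1+/+, where none was. The 2.07-fold difference, of uncertain size this near background, did not pass (limma adjusted p = 0.0532).

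Bgn, which encodes biglycan, gave different answers by probe and by dye. Probe A_52_P162486 read 41655, 47654, 35914 and 33446 in STMN1-/- and 19595, 23664, 34640 and 30626 in STMN1+/+. With STMN1-/- in Cy3 the log2 ratios were 1.09 and 1.01, and with STMN1-/- in Cy5 they were 0.05 and 0.13. The mean of 0.57 ± 0.22 (SE, n = 4, limma adjusted p = 0.129) did not pass, with a 95% interval of 0.01 to 1.13. When the dye entered the fit as a second coefficient, this coefficient was -0.48 ± 0.04 (SE, limma adjusted p = 0.0602) and the unchanged mean ratio then passed (limma adjusted p = 0.00427). Probe A_52_P19711, 1.53 kb away on the X chromosome, read 485.1 to 624.4 in STMN1-/- and 449.5 to 692.6 in STMN1+/+, a log2 ratio of -0.06 ± 0.08 (SE, n = 4, limma adjusted p = 0.614). The brighter probe gave the higher ratio on 4 of 4 arrays, by 0.17 to 1.01.

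Ogn and Podn stand for the remaining classes. Ogn, which encodes the class III protein osteoglycin, read 22871, 24267, 23387 and 24326 in STMN1-/- and 20366, 20664, 18536 and 19900 in STMN1+/+. The genotypes did not overlap, but the difference was the smallest of those that passed, with a log2 ratio of 0.26 ± 0.06 (SE, n = 4, limma adjusted p = 0.0359), or 1.19-fold. Without any 1 of the 4 arrays Ogn no longer passed (limma adjusted p between 0.0787 and 0.129). Podn, which encodes the class V protein podocan, read 369.9, 371.1, 252.9 and 352.8 in STMN1-/- and 50.3, 110.0, 114.2 and 179.2 in STMN1+/+. The STMN1+/+ signal was well above background on 2 of 4 arrays. The log2 ratio was 1.69 ± 0.33 (SE, n = 4, limma adjusted p = 0.0246), or 3.23-fold, and the single arrays ranged from 0.98 to 2.88.

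**Figure D2:**
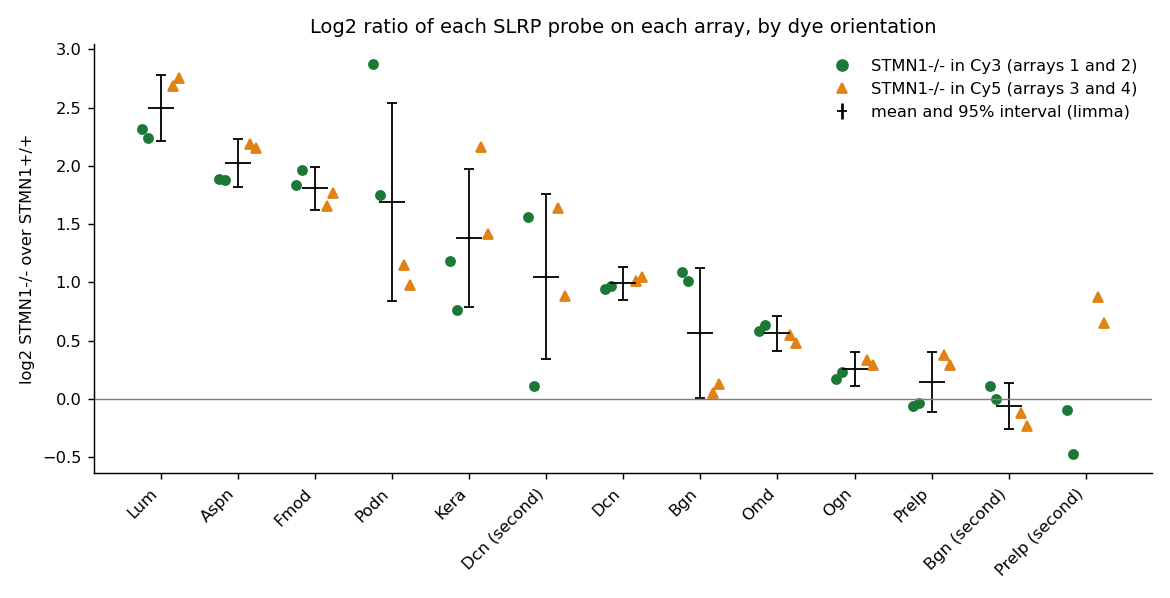
Log2 ratio of STMN1-/- over STMN1+/+ (y axis) for each SLRP probe on each array, with circles for arrays 1 and 2 (STMN1-/- in Cy3) and triangles for arrays 3 and 4 (STMN1-/- in Cy5), and a bar for limma's mean with its 95% interval where the probe was tested. Dcn has the narrowest spread, and the brighter Bgn probe splits by dye, with circles near 1.05 and triangles near 0.09.

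Values by dye orientation were set side by side for other members. The mean log2 ratio of Lum was 2.28 with STMN1-/- in Cy3 and 2.72 in Cy5, and that of Aspn 1.88 and 2.17. Podn gave 2.32 in Cy3 and 1.06 in Cy5, and Prelp gave -0.05 and 0.33. For none of the 12 SLRP probes tested did the dye coefficient pass, with limma adjusted p-values from 0.0602 for the brighter Bgn probe upwards. Lum, Aspn, Fmod, Dcn, Omd, Ogn, Podn and Kera were higher in STMN1-/- under both orientations.

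Kera, whose size is uncertain near background, has no place in the order of log2 ratios. Neighbours in the order of the other 9 could not all be separated by the spread between arrays. Among these 9 the place of Podn is uncertain too, since its log2 ratio was 1.69 here and 0.32 in the second processing described below. Lum exceeded Aspn on 4 of 4 arrays (mean difference 0.47, SD 0.11), and Omd exceeded Ogn on 4 of 4 (mean difference 0.31, SD 0.12). Aspn exceeded Fmod on 3 of 4 arrays (mean difference 0.22, SD 0.28). Fmod and Podn, Podn and Dcn, Dcn and Bgn, Bgn and Omd, and Ogn and Prelp each differed by less than 1 SD of their within-array differences.

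A second processing of the same spots left fewer members called. When the background was instead corrected by normexp and the dyes by loess, Lum, Aspn, Fmod and Dcn were called, 4 of 10 genes, with log2 ratios of 2.10, 1.85, 1.40 and 0.96. That setting called 5.13% of all genes tested higher, and the median log2 ratio of the 10 genes was then 0.45. Podn then had a log2 ratio of 0.32 (limma adjusted p = 0.0734), Kera 0.14 (limma adjusted p = 0.23), Omd 0.36 (limma adjusted p = 0.0643) and Ogn 0.20 (limma adjusted p = 0.0953). Lum, Aspn, Fmod and Dcn were called under each of the 16 alternatives run, and no member turned its direction under any of them.

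**Figure D3:**
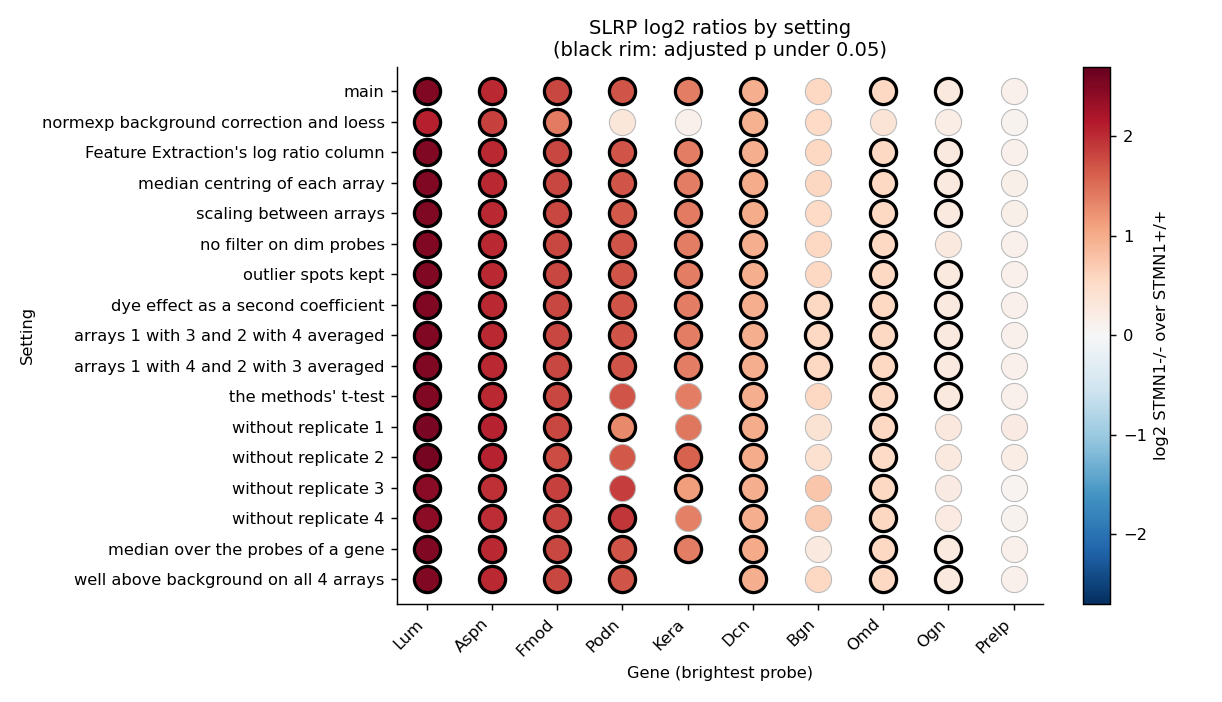
Log2 ratio of STMN1-/- over STMN1+/+ (colour) of the 10 SLRP genes by their brightest probe (x axis) under each setting (y axis), with a black rim where the adjusted p was under 0.05. Lum, Aspn, Fmod and Dcn keep the rim in every row, Prelp has it in none, and Kera has no value where probes had to be well above background on all 4 arrays.

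Many SLRP genes lie beside each other in the genome, and neighbours differed in size of change. On chromosome 10 the probes of Dcn, Lum and Kera span 96.0 kb, with Lum above Dcn by 1.27 to 1.71 on the log2 scale on 4 of 4 arrays. Epyc, which encodes the class III cartilage SLRP epiphycan, has its probe 163.6 kb from that of Dcn and fell by 0.83 on the log2 scale (SE 0.08, n = 4, limma adjusted p = 0.00405). With normexp its value was -0.27 (limma adjusted p = 0.0706). Further off, Btg1, an antiproliferative gene 898.3 kb from Dcn on the other side, fell by 0.26 (limma adjusted p = 0.0349), while Eea1 at 0.11 and Atp2b1 at -0.06, at 1490.8 kb and 1506.0 kb on either side, did not pass. On chromosome 13 Aspn, Omd and Ogn lie within 57.1 kb, and their log2 ratios were 2.03, 0.56 and 0.26. On 4 of 4 arrays Aspn exceeded Omd, by 1.25 to 1.67, and Omd exceeded Ogn. Of the nearest other genes measured there, Cenpp fell by 0.33 (limma adjusted p = 0.017, and 0.0534 with normexp), while Ippk at -0.09, Nol8 at -0.09 and Iars at 0.17 did not pass. On chromosome 1 Fmod lies 137.1 kb from Prelp, and Fmod exceeded Prelp by 1.28 to 2.00 on 4 of 4 arrays. Optc, the SLRP of the eye's vitreous, at 8.4 kb from Prelp, had a log2 ratio of 0.15 (limma adjusted p = 0.18), and Btg2, beyond Fmod, had 0.08 (limma adjusted p = 0.47). Zc3h11a (0.03) and Chit1 (0.37), the next genes measured on either side, did not pass (limma adjusted p = 0.731 and 0.236). Podn lies on chromosome 4, as Stmn1 does, 26.5 Mb from it.

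**Figure D4:**
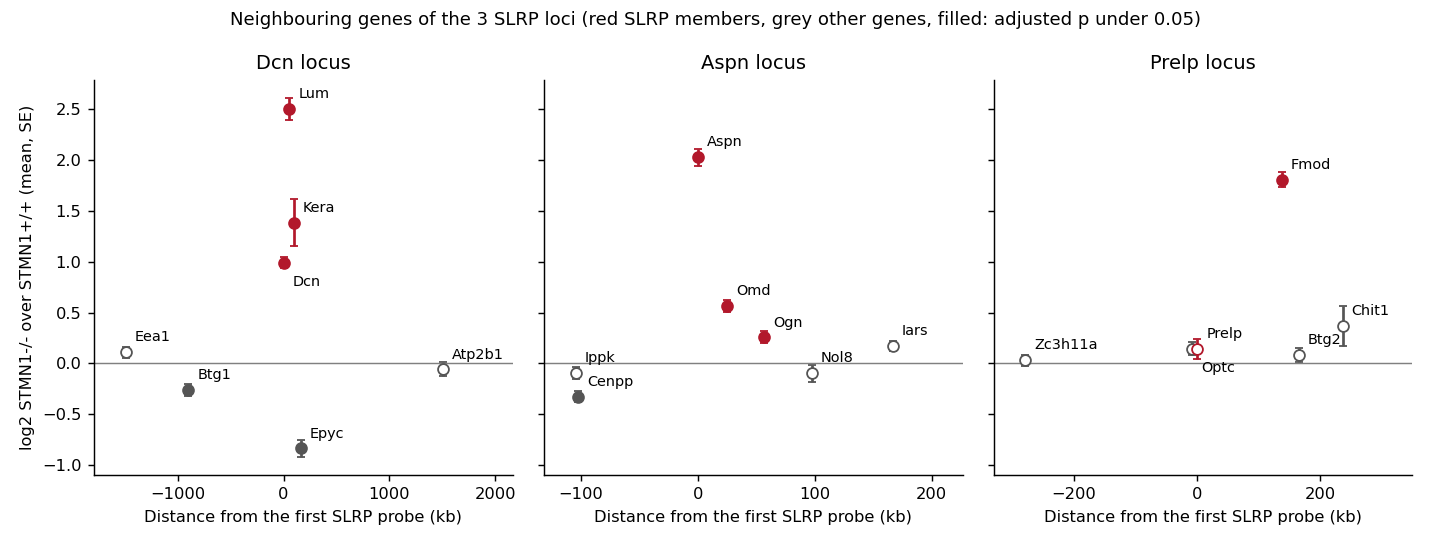
Log2 ratio of STMN1-/- over STMN1+/+ (mean and SE over the arrays, y axis) against distance in kb from the first SLRP probe (x axis) for SLRP members (red) and the 2 nearest measured genes on each side (grey) at 3 loci, filled where the adjusted p was under 0.05. Lum at 2.50, Aspn at 2.03 and Fmod at 1.81 stand above every neighbour shown, and Epyc at -0.83 is below the line.

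Since the neighbours on chromosomes 13 and 1 moved by different amounts, the 250 bases before their transcription starts are shown, from RefSeq on GRCm38.p6 and in the direction of transcription. Windows were at hand for 8 of the 10 genes. Capitals mark any match, on either strand, to TATAAA (the core promoter box of that name), TGACTCA (AP-1), CATTCC (TEAD) or CAGACA (SMAD).
Aspn, chr13:49544193-49544442, plus strand: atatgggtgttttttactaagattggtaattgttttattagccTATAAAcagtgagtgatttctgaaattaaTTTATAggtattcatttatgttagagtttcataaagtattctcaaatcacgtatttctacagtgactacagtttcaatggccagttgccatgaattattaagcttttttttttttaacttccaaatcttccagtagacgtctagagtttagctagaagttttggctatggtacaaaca
Omd, chr13:49582212-49582461, plus strand: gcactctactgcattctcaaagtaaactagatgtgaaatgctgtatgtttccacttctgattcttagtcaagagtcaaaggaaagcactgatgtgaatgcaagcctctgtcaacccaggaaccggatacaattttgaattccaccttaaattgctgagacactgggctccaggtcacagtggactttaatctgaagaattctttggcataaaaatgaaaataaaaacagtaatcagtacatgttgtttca
Ogn, chr13:49607765-49608014, plus strand: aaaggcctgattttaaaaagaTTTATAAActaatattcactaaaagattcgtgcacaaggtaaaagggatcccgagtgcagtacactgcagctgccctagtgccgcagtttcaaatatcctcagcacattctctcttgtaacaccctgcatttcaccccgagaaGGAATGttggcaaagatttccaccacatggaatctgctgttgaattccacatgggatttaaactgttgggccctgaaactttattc
Fmod, chr1:134037004-134037253, plus strand: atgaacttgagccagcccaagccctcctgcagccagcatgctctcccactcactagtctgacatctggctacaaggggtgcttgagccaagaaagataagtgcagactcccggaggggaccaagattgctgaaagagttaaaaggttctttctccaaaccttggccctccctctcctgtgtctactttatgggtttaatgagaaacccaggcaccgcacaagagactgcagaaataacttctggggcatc
Prelp, chr1:133921402-133921651, minus strand: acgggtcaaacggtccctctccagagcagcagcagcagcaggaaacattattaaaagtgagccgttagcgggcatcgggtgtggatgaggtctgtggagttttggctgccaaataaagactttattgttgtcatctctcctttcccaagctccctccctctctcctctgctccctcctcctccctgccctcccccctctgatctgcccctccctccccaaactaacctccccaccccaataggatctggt

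The Aspn window held TATAAA at 207 and, on the other strand, at 178 bases before the start. The Ogn window held an overlapping pair of TATAAA matches at 229 and 227 bases and a CATTCC match on the other strand at 86 bases before the start. None of these letters occurred in the windows of Omd, Fmod and Prelp, nor in those of Bgn, Kera and Podn. Among all 32851 windows of this length 12.4% held TATAAA, 4.46% TGACTCA, 12.6% CATTCC and 17.1% CAGACA. A match is a run of letters and no site is claimed.

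Of 9 further SLRP family genes 7 were tested, 0 were higher by limma, and Epyc was lower, with a median log2 ratio of 0.08. Of all genes tested 13.1% were higher, so with 7 genes a count of 0 is near the background. At an unadjusted p under 0.05 limma and the methods' t-test each gave 0 higher and 2 lower. Tsku, which encodes tsukushi, a secreted signalling modulator, had a log2 ratio of -0.22 (limma adjusted p = 0.0939), and Podnl1, a relative of podocan, 0.08 (limma adjusted p = 0.441). Chad (0.13), Chadl (0.18), Optc (0.15) and Nyx (0.02) did not pass either. Ecm2 and Nepn were not well above background in either genotype on any array. Without the filter on dim probes they entered the test, and 1 of the 9 genes, Ecm2, was called higher (limma adjusted p = 0.0353).

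Genes around the SLRPs were taken from 6 lists, with 97 genes tested in all. Of these 33 were higher and 20 were lower in STMN1-/-, with a median log2 ratio of 0.15. The shares to read these and the list counts that follow against are 13.1% higher and 12.2% lower among all genes tested, with a median of 0.0048. The list of collagens and other ligands that SLRPs bind held most of the higher calls, 16 of 22 genes, with 3 lower and a median of 0.80. Mfap2, a microfibril protein, had a log2 ratio of 1.31 ± 0.06, Col1a1 1.28 ± 0.06 and Col3a1 1.23 ± 0.05, the main fibrillar collagens of skin (SE, n = 4, limma adjusted p = 0.000803 for each). Tnxb (-0.89 ± 0.10), Col14a1 (-0.88 ± 0.07) and Comp (-0.46 ± 0.11), all of them fibril-associated proteins, were lower, with limma adjusted p-values of 0.00507, 0.00204 and 0.0392. With normexp the list had 16 higher and 1 lower, and Tnxb and Comp no longer passed.

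Enzymes that build the sugar chains moved both ways, with 8 of 30 genes higher and 3 lower and a median log2 ratio of 0.14. Csgalnact1, which starts chondroitin sulfate chains on the linker, read 15105 in STMN1-/- and 3876 in STMN1+/+ on average, a log2 ratio of 1.96 ± 0.06 (SE, n = 4, limma adjusted p = 0.000603). Chst5, a keratan sulfate-type sulfotransferase, was well above background in STMN1-/- on 3 of 4 arrays and in STMN1+/+ on none. It read 2.30-fold higher on average (limma adjusted p = 0.0276), a size that is uncertain near background. Array 3 gave 4.41-fold and the other arrays 1.75-fold to 1.98-fold. Chst15, which sulfates chondroitin, followed at 0.61 ± 0.06 (limma adjusted p = 0.00418). Chst7, a chondroitin sulfotransferase, fell by 0.85, Ugdh, which makes the UDP-glucuronate of the chains, fell by 0.76, and the keratan sulfate sulfotransferase Chst1 fell by 0.29 on the log2 scale (limma adjusted p = 0.00151, 0.00191 and 0.0372). Chst5, Chst15 and Chst1 did not pass with normexp. That setting left 3 of the 30 genes higher and 2 lower, where 5.13% of all genes tested were called higher.

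Receptors that SLRPs are known to engage had 2 of 14 genes higher and 6 lower, with a median log2 ratio of -0.08. The count of higher receptors is near the background of 13.1%. P2rx4, a purinergic channel, was higher by 0.51 ± 0.06 and Tlr2, a receptor for biglycan, by 0.30 ± 0.06 (SE, n = 4, limma adjusted p = 0.00686 and 0.0252). Met, a receptor bound by decorin, fell by 0.80 by its brightest probe (limma adjusted p = 0.00981), while its 2 other probes gave -1.42 and 0.10. Kdr, the VEGF receptor, fell by 0.72 by its brightest probe, while its other probe gave 0.20 and did not pass, and P2rx7 fell by 0.57 on the log2 scale (limma adjusted p = 0.00287 and 0.00628). Tlr2, Kdr and P2rx7 did not pass with normexp, which left 1 of the 14 genes higher and 2 lower.

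Among proteases that process or cut SLRPs 4 of 12 genes were higher and 3 lower, with a median of 0.14. Adamts4, an aggrecanase, had a log2 ratio of 1.17 ± 0.06, Mmp14, a membrane-bound metalloproteinase, 0.68 ± 0.16, and Bmp1, which trims the propeptide of several SLRPs, 0.60 ± 0.08 (SE, n = 4, limma adjusted p = 0.000883, 0.0407 and 0.00867). Mmp3 fell by 0.63, Tll1, a relative of Bmp1, by 0.47, and Adamts5 by 0.41 on the log2 scale (limma adjusted p = 0.00276, 0.0151 and 0.00907). The paper lists Adamts5 as lower by microarray but higher by qRT-PCR in STMN1-/- MEFs. It lists Mmp14 as lower by microarray, unlike here, and higher by qRT-PCR. Mmp14 and Tll1 did not pass with normexp, which left 3 of the 12 genes higher and 2 lower.

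The proteoglycans outside the SLRP family showed no common direction, with 3 of 12 genes higher, 4 lower and a median log2 ratio of 0.06. Spock3 was higher by 0.92 ± 0.16, Srgn, the proteoglycan of secretory granules, by 0.89 ± 0.11 and the large chondroitin sulfate proteoglycan Vcan by 0.23 ± 0.05 (SE, n = 4, limma adjusted p = 0.0188, 0.00708 and 0.034). The 3 other Vcan probes gave 0.16 to 1.13, and 1 of them was called higher. Esm1, the dermatan sulfate proteoglycan endocan, fell by 2.10, Ncan by 1.01 and Spock2 by 0.55 on the log2 scale (limma adjusted p = 0.000863, 0.00149 and 0.0203). With normexp 0 of these 12 genes passed limma's test in either direction, and 3 were higher and 4 lower at an unadjusted p under 0.05.

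**Figure D5:**
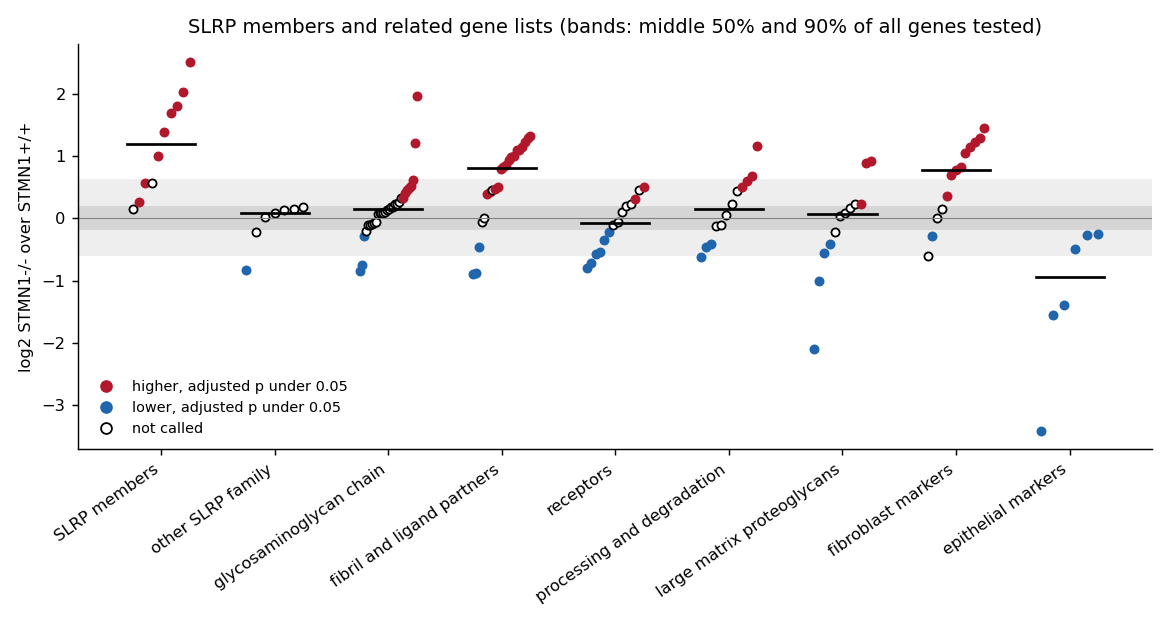
Log2 ratio of STMN1-/- over STMN1+/+ (y axis) of each tested gene by list (x axis), each point 1 gene by its brightest probe, red or blue where it passed higher or lower, with the list median as a line and grey bands for the middle 50% and 90% of all 15761 genes tested. The SLRP members have a median of 1.19 and the collagens and other ligands one of 0.80, the further family genes lie near 0 apart from Epyc, and all epithelial markers are below 0.

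Markers of the cell types a MEF culture can hold moved with the genotype as well. All 13 fibroblast markers were tested, 9 were higher in STMN1-/- (among them Col1a1, Col3a1, Fap, Pdgfrb and Thy1) and Vim was lower. S100a4, Twist1 and Prrx1 did not pass. Col1a1, Col1a2, Col3a1 and Fn1 are also counted in the list of collagens and other ligands. The summed signal was 4387996 to 6814054 in STMN1-/- and 4019328 to 4649469 in STMN1+/+. S100a4 alone read 772943 to 2171932 in STMN1-/- and 1664044 to 2447218 in STMN1+/+. Its log2 ratios were -1.54 and -1.38 with STMN1-/- in Cy3, and 0.08 and 0.38 in Cy5. Of 7 epithelial markers 6 were tested and all 6 of these were lower, with a summed signal of 46282 to 53260 in STMN1-/- and 60605 to 68110 in STMN1+/+. Cdh1, the epithelial cadherin, was not well above background in STMN1-/- on any array and read 10.6-fold lower there, a size that is uncertain near background. Epcam was not well above background in either genotype. With normexp 3 of these 6 passed. For endothelial cells 2 of 4 tested markers were higher and 1 lower (summed signal 2949 to 3247 against 2765 to 3280), and Cdh5, Pecam1 and Tie1 were not well above background. Macrophage and leukocyte markers gave 2 higher and 2 lower of 6 (8771 to 9731 against 9348 to 10637). Cartilage, bone and tendon markers gave 2 higher and 3 lower of 11 (73410 to 81311 against 69685 to 73839). Of the tendon genes among these Tnmd was higher by 1.03, Scx fell by 0.27 and Mkx, at -0.39, did not pass (limma adjusted p = 0.00133, 0.0339 and 0.0529). Col2a1, of the same list, was higher by 0.22 by its brightest probe (limma adjusted p = 0.044), while its other probe was called lower at -1.08. Muscle markers gave 2 higher and 0 lower of 6 (61340 to 84224 against 56685 to 74775), with 1 lower at an unadjusted p under 0.05 in limma. The part of these cells in the SLRP values was not tested.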

How the data were processed

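The 4 arrays were scanned and processed by the authors with Agilent Feature Extraction 9.5.3.1, with background subtraction, spatial detrending and a LOWESS step per array that balanced the dyes. The deposited files hold intensity values per spot, raw and processed, and a log10 ratio of Cy5 over Cy3. Positions are those of the array design on build mm7. Also deposited, and not used, were log ratios per array of the probes that had passed the authors' filters and test.

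Processed intensities gave a log2 ratio per spot, turned by the dyes in the labels so that STMN1-/- stood over STMN1+/+. Of 45018 spots per array 1639 controls were left out, as were outlier spots, and spots of 1 probe were averaged. Of 41174 probes, 27724 had a value and were well above background in either channel of at least 1 array. These were tested with limma 3.58.1 in R 4.3.3 (moderated test against 0, Benjamini-Hochberg over all probes). A gene was represented by its brightest probe. Probe names were updated through RefSeq accessions and symbols where they matched. Named were every probe of the 10 genes, up to 3 called genes per direction in each list, the further family genes in full, the 2 nearest measured genes on each side of neighbouring members, and Stmn1. Cell type markers given by name were picked after their values were seen. The members and lists were chosen with earlier results of these data known. All 4 arrays lie on 1 slide, so no slide effect could be fitted. The number of arrays limits the precision. The test was checked on simulated data.

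Alternatives changed the background correction (normexp, offset 50, followed by loess), the source of the ratio (the deposited log10 column), the centring or scale of the arrays, the filter on dim probes (dropped, or required on all 4 arrays), the treatment of outlier spots, the model (a dye coefficient, dye pairs averaged in both possible ways, the methods' t-test), the probe choice (median over a gene's probes) and the arrays, each left out in turn.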

Additional observations from a re-analysis of the deposited data

Results flagged for a closer look

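Among the 59 probes named, 3 had 1 array whose log2 ratio stood apart from the other 3 by more than Dixon's critical share of the range for 4 samples. Chance gives about 1 in 20 groups such a value, and no SLRP member was among them. Chst5 had 2.14 on array 3 against 0.81 to 0.99 on the others. Col14a1 had -1.04 on array 2 against -0.84 to -0.81. Vcan had 0.25 on array 4 against 0.22 to 0.23.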

How the results depend on the processing

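With normexp background correction and loess the SLRP genes called higher went from 8 to 4, the SLRP probes called from 8 to 4, and the pathway genes called lower from 20 to 7. The cause was not tested. The counts of SLRP genes higher ranged from 6 to 9 under the other alternatives, with 9 where a dye coefficient was fitted or arrays were averaged in dye pairs (Bgn then passed), 7 without a filter on dim probes (Ogn lost) or with the filter on all 4 arrays (Kera left out), and 6 with the methods' t-test (Podn and Kera lost). The share of all genes called higher also moved, from 13.1% to 21.8% with the dye coefficient, 14.2% and 14.8% with dye pairs, 6.21% without the filter, 15.9% with the filter on all 4 arrays, 9.05% with the t-test and 6.34% to 7.22% with 1 array left out. Leaving out 1 array gave 6 SLRP genes each time: Ogn was lost in all 4 cases, Kera without array 1 or 4, and Podn without array 2 or 3. The pathway genes called lower were 13 to 15 with 1 array left out. No SLRP gene was called lower under any alternative, by limma or by the methods' t-test. Reversed signs were seen only for genes that did not pass: Eea1 (-0.0725) and Atp2b1 (0.019) with the median over a gene's probes, Nol8 (0.071) with normexp, and Nyx (-0.14 to 0.23 with 1 array left out). The other named probes gave the same call in 675 cases, a weaker one in 80 and a stronger one in 4. The log2 ratio of each array already pairs the genotypes. A further fit with a replicate block could not be made, since each replicate number is 1 array and 1 ratio. Signals near background (Podn, Kera, the second Dcn probe) limit the size of a ratio.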
